A study of Mus musculus with 34 samples.

Results

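The anterior epiblast and the primitive streak of mouse embryos at embryonic day 7 were compared by RNA sequencing of small laser-captured sections. The comparison uses 13 of the 34 samples of the series: the 2 sections labelled anterior epiblast and the 11 labelled primitive streak, taken by these labels and not by any measured value. All come from C57/B6 embryos and carry an altered allele of the long non-coding RNA gene Evx1as, which the labels do not describe further. The anterior sections are 1 heterozygous (Evx1as+/-) and 1 homozygous (Evx1as-/-) library, each a capture across layers 4 to 6. The streak sections are 6 heterozygous libraries of layers 1, 3, 5, 7, 9 and 11 and 5 homozygous libraries of layers 1, 5, 7, 9 and 11. The labels do not say which end of the embryo layer 1 is. There is no wild-type section, so every level given comes from embryos with at least 1 altered Evx1as allele. A further 3 sections, whose title and cell type label name different regions, were left out. No label ties a section to an embryo. Sections may therefore share embryos and the spread between them may be partly technical, in which case the p-values computed across them are too small.

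The epiblast is the epithelium from which the whole embryo proper arises. At its posterior side, Wnt, Nodal and fibroblast growth factor (FGF) signals set up the primitive streak, where cells switch on the T-box genes T (Brachyury) and Eomes and the homeobox gene Mixl1, loosen their epithelial contacts and leave as mesoderm or endoderm. Epiblast cells far from the streak stay epithelial, keep Sox2 and go on to form ectoderm, including the brain. Setting these regions against each other therefore asks which genes mark each end of the epiblast.

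Levels are given in scaled FPKM: fragments per kilobase of transcript, relative to all mapped fragments of the library, as deposited and then divided by 1 scaling factor per library (median-ratio scaling, as used for counts). A difference is the fitted log2 of (scaled FPKM + 1) in anterior epiblast minus that in streak, with genotype as a term. A gene is called where the Benjamini-Hochberg adjusted p of limma's test over all 9663 genes measured (a mean of at least 1 scaled FPKM) is under 0.05 and the sign is the same within both genotypes.

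Evx1as, listed as 5730457N03Rik (ENSMUSG00000086126.1, chromosome 6, 52308389 to 52314832, mm10), was at 0.16 in the heterozygous anterior section and listed at 0 in the homozygous one. In the heterozygous streak sections it was listed at 0 in layer 1, and was at 0.0555 in layer 3, 3.44 in layer 5, 1.90 in layer 7, 0.228 in layer 9 and 1.11 in layer 11. In the homozygous streak sections it was 0.041 in layer 1, 0.111 in layer 9 and listed at 0 in layers 5, 7 and 11. The anterior values lie inside the range of the streak, where 4 of 11 sections are also at 0 (exact permutation test of the anterior label within genotype, two-sided, p = 0.643). Its neighbour Evx1 (ENSMUSG00000005503.8, chromosome 6, 52313498 to 52318378), a homeobox gene of the posterior streak, was listed at 0 in both anterior sections. In the heterozygous streak Evx1 was listed at 0 in layer 1 and was 1.24, 3.29, 1.02, 5.43 and 12.2 in layers 3 to 11, and in the homozygous streak it was 0.208, 0, 1.28, 2.30 and 4.27 in layers 1, 5, 7, 9 and 11. The groups overlap at 0, and the difference of -1.45 (SE 0.77) did not pass (adjusted p = 0.657 over all genes, exact permutation p = 0.167). The smallest p that the 42 arrangements of the 13 sections allow is 0.0238. The 2 genes overlap by these positions, and whether counting used the strand is not given in the sources used here.

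The sections of the comparison differed in depth and make-up. Over all genes, log2(scaled FPKM + 1) of the 2 anterior sections had a Pearson correlation of 0.8901. With the streak sections it was 0.8319 to 0.8943 for the heterozygous anterior section and 0.8445 to 0.9445 for the homozygous one. The 2 anterior sections were thus no more alike than either was to some streak sections. The fragments that the deposited confidence intervals imply summed to 406658 in the heterozygous anterior section, the lowest of the 13, and to 1368801 in the homozygous one, against 472460 to 2048027 in the streak. The entry annotated as the non-coding RNA Yam1 took 29.3% of all FPKM in the first, 5.96% in the second and 1.76% to 19.4% in the streak sections. Streak layer 1 held node genes in both genotypes, and the homozygous streak layer 11 held genes of the visceral endoderm, the outer layer of the embryo: Apoa1 was 377 there against 2.64 and 0.912 in the anterior sections, and the 21 genes of that list summed to 1508, the highest of the streak, where the lowest sum was 46.2. In the anterior sections the visceral endoderm list summed to 59.6 and 34.5, most of it from Apoe, at a mean of 41.2. Of its other genes Amn was at 0 in both, while Apoa1 and Cubn were above 0 in both. Genes of the anterior visceral endoderm were mixed. Hhex had a mean of 3.09 in the anterior sections and 4.55 in the streak, Cer1 of 0.64 and 5.63, and Dkk1 of 0 and 4.50.

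Markers of both regions were checked against the labels. Sox2, the pluripotency and neural factor (ENSMUSG00000074637.7, chromosome 3, 34650405 to 34652461), was 17.8 and 15.1 in the heterozygous and homozygous anterior sections and ranged from 0 to 4.39 in the streak, with a median of 0.651. Sox3, its close relative, was 5.61 and 1.18 against 0 to 0.488 and lay under the expression filter. The streak markers T, Mixl1, Eomes, Fgf8, Wnt3 and Snai1 were all lower in both anterior sections than in any streak section. The mesoderm marker Mesp1 was 2.04 in the heterozygous anterior section and listed at 0 in the homozygous one, against a streak median of 26.6. In homozygous streak layer 1 Mesp1 was at 0.320, so the regions overlap, and it was not called (adjusted p = 0.338). Other mesoderm genes also overlapped the streak without a call. Msgn1 was at 0 in both anterior sections. These are bulk captures, in which fewer cells of a type and less RNA per cell cannot be told apart.

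Of the 9663 genes, 56 were called (0.58%): 27 higher in the anterior epiblast (0.279%) and 29 lower (0.3%). The median difference over all genes was -0.01. In the FPKM as deposited, without scaling, that median was -0.35 and the split was 10 higher and 30 lower, so the balance between the directions depends on the scaling. Both anterior sections lay beyond all 11 streak sections for 55 of the 56 called genes, 27 above and 28 below. Of all genes measured, 2.27% lay above and 1.87% below, 4.14% together. The calls were made on these same values, so this separation follows largely from the choice of genes and is no separate evidence. At an unadjusted p under 0.05 there were 385 genes higher (3.98%) and 469 lower (4.85%). Of the called genes, 19 higher and 27 lower have a gene name, and the other 8 and 2 are predicted genes or pseudogenes. Without the heterozygous anterior section 10 genes were called, 7 of them among the 49 earlier calls that were still measured; without the homozygous one 54 were called higher and 72 lower, among them 27 of the 53 still measured. The genes T, Tdgf1, Cxx1c and Sp5 below, and Slc35d3 and Pou3f1 above, passed under every alternative in which they were measured, including those without an anterior section. In the FPKM as deposited 15 of the genes named here lost their call: Snhg14, Acsl4, Phc1, Msmo1, Cxcl12, Sall2, Hacd1, Fdps, Insig1, Cited2, Spon1, Cbx7, Mapk12, Snai1 and Aplnr. Of the 27 genes called higher, 12 had a streak mean under 1 and passed the expression filter through the anterior sections, 7 of them through 1 library alone. Slc35d3 and Pou3f1, with streak means of 0.27 and 0.82, are among the 12. Both were left out by the alternative filter at a mean of at least 5.

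**Figure D1:**
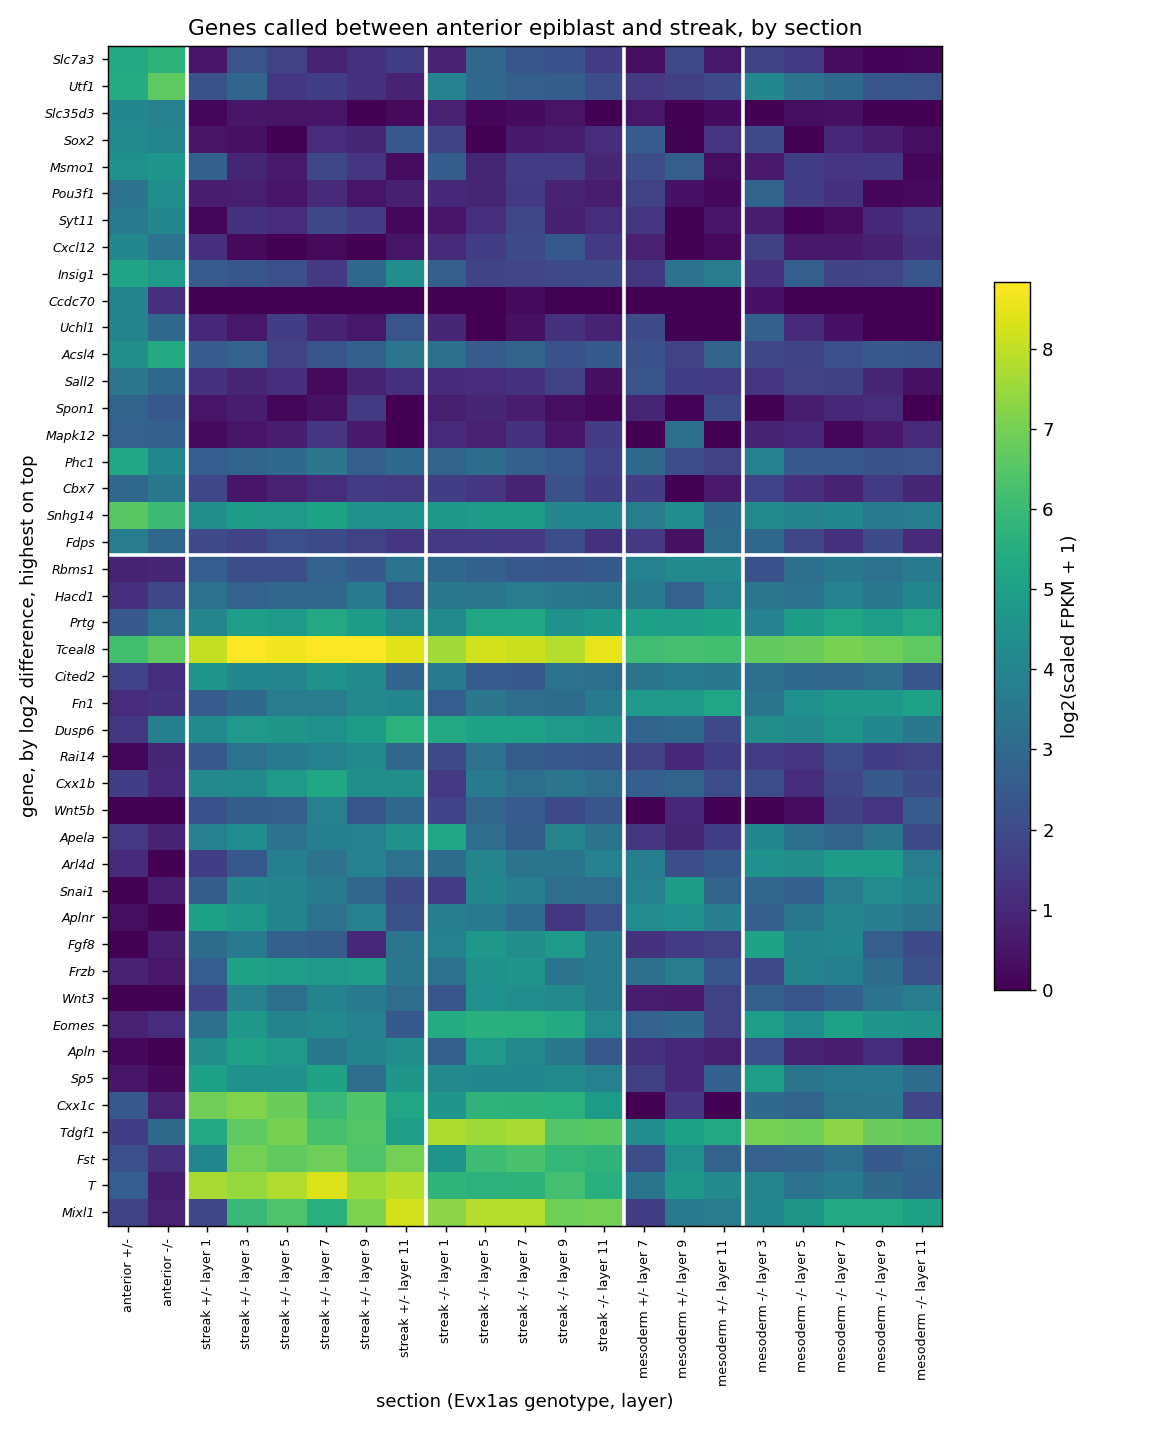
Level of each of 44 called genes that have a gene name (rows, by difference, highest on top) in each section (columns), as log2(scaled FPKM + 1) from dark (0) to yellow; white lines part anterior, streak and mesoderm sections, the genotypes, and the 19 genes higher in anterior epiblast from the 25 lower shown. The 2 anterior columns on the left stand out from the 11 streak columns beside them, as the choice of called genes requires. The 8 mesoderm columns on the right resemble the streak for some genes, such as Tdgf1, and the anterior sections for others, such as Tceal8.

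The homeobox gene Mixl1 and the T-box gene T gave the largest differences of all called genes. T (ENSMUSG00000062327.10, chromosome 17, 8434423 to 8442496) was 5.19 in the heterozygous anterior section and 0.598 in the homozygous one. In the heterozygous streak T ranged from 175 to 330, with a median of 213, and in the homozygous streak it was 53.9, 50.3, 51.9, 73.2 and 45.7 in layers 1, 5, 7, 9 and 11. Every streak section of either genotype is thus well above both anterior sections, and T was lower in the anterior epiblast by -5.14 (SE 0.25, adjusted p = 2.79e-08; exact permutation p = 0.0238, the smallest possible). The deposited value behind the heterozygous anterior level, 3.62 FPKM, has an interval of 2.07 to 5.16 and corresponds to about 22 fragments. Mixl1, a homeobox factor of mesendoderm, was 2.50 and 0.76 in the anterior sections. In the streak its lowest value was 2.76, in heterozygous layer 1, its median 124.9 and its highest 311. Layer 1 of the heterozygous streak lies just above the anterior values and all other streak sections are at 47.4 or more. The difference of -5.30 (SE 1.05, adjusted p = 0.0294) is the largest in size of all called genes and one of the least precise. Eomes, needed for the exit of mesoderm and endoderm, was 0.775 and 1.15 in the anterior sections and 4.73 to 48.4 in the streak, with no overlap (-3.53, SE 0.49, adjusted p = 0.00272). Snai1, a repressor of the epithelial cadherin gene, was listed at 0 and at 0.61 against 1.91 to 16.5, again with no overlap (-2.84, SE 0.59, adjusted p = 0.0437). The Snai1 call was lost in 15 of 28 alternatives.

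Of the 17 streak genes listed for this comparison all were measured, 8 were called lower (0.3% of all genes were) and none higher. The median difference of the list was -2.84 and no member had a positive one. Besides T, Mixl1, Eomes and Snai1, the 8 are the Wnt ligand Wnt3, the FGF ligand Fgf8, the zinc finger factor Sp5 and the peptide hormone Apela. Of the 9 that did not pass, Cyp26a1, which breaks down retinoic acid, was 1.11 and 0.0784 in the anterior sections and 1.36 to 76.6 in the streak (-3.85, SE 0.98, adjusted p = 0.116). Lefty2, a Nodal antagonist, was 1.15 and 0.107 against 1.08 to 67.9 and overlapped the streak (adjusted p = 0.301).

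**Figure D2:**
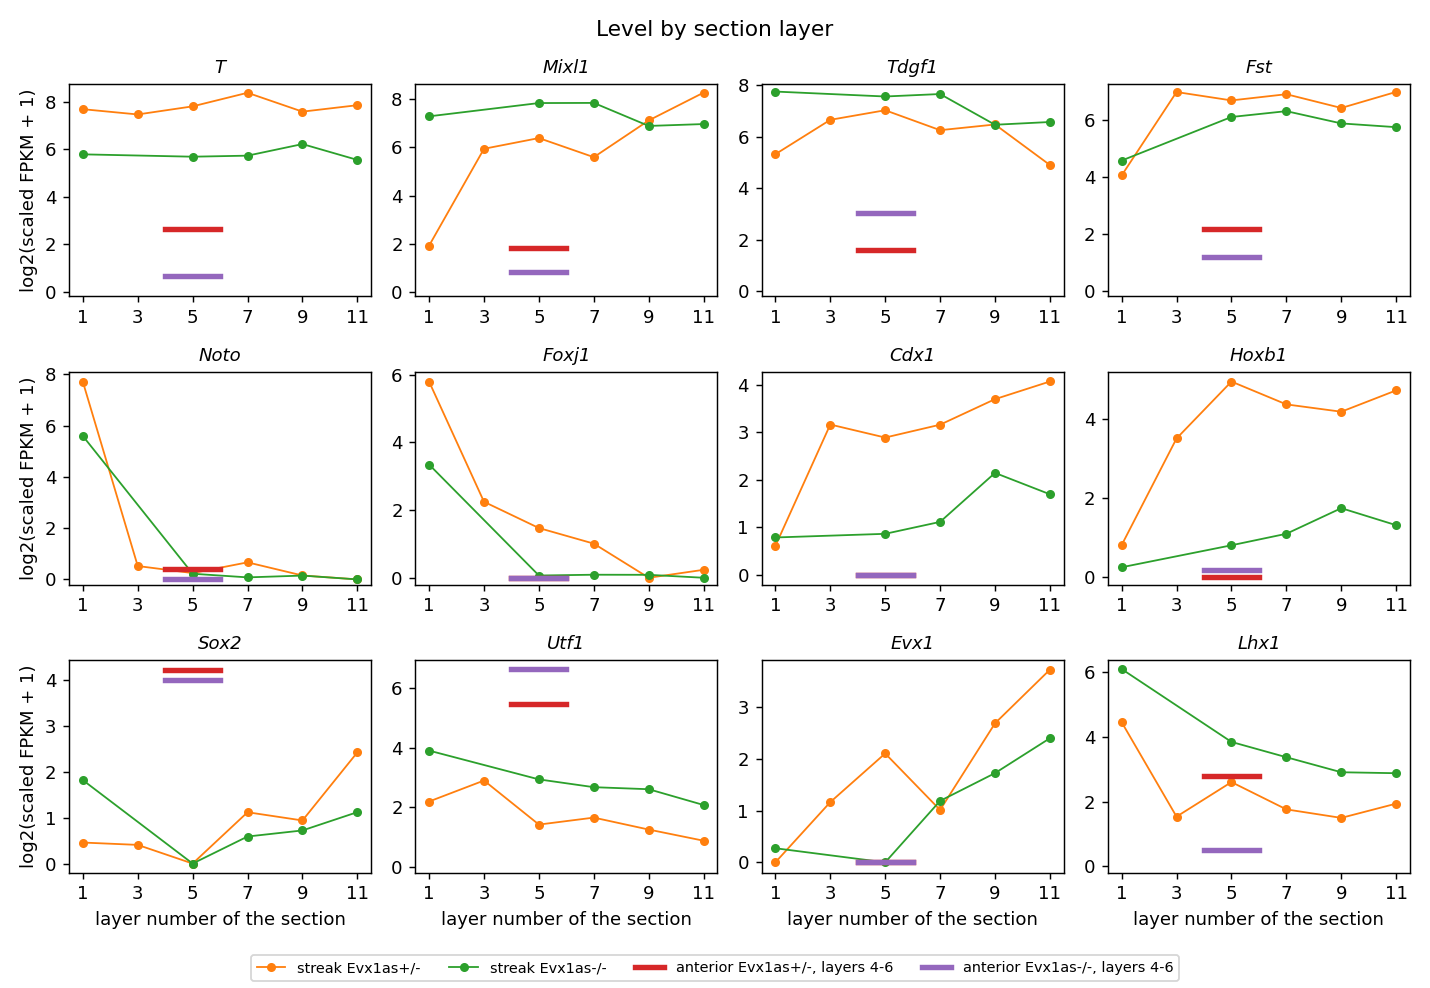
Level of 12 genes as log2(scaled FPKM + 1) (vertical axis) against the layer number of the section (horizontal axis); lines join the 6 heterozygous (orange) and 5 homozygous (green) streak sections, and red and purple bars mark the heterozygous and homozygous anterior sections over layers 4 to 6. T is above the anterior bars in every layer, Mixl1 comes down to them in heterozygous layer 1, Noto and Foxj1 stand out in layer 1, and Sox2 and Utf1 are highest in the anterior sections.

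Of the secreted signals of the streak, the ligand genes Wnt3, Wnt5b and Fgf8 were called lower in the anterior epiblast. Wnt3, the Wnt ligand that is needed to form the streak, was listed at 0 in the heterozygous anterior section and was 0.0423 in the homozygous one. In the streak Wnt3 ranged from 2.44 to 22.2, with a median of 11.4 (-3.50, SE 0.56, adjusted p = 0.00891). Wnt5b, another Wnt ligand, on the posterior list, was listed at 0 in both anterior sections and was 2.46 to 13.2 in the streak (-2.54, SE 0.40, adjusted p = 0.00891). For both ligands every streak section was above both anterior ones. Fgf8 was listed at 0 and at 0.592 in the anterior sections and was 0.996 to 26.1 in the streak, with the lowest value in heterozygous layer 9 (-3.19, SE 0.53, adjusted p = 0.0117). Wnt3a (0 and 0.333 against 0.261 to 14.6) and Nodal (0.23 and 0 against 0 to 9.91) overlapped the streak, at adjusted p = 0.0868 and 0.428. Fgf4, another FGF ligand, was 1.84 and 1.25 against 0 to 17.9, with a streak median of 1.98, and also overlapped (adjusted p = 0.877).

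Tdgf1 encodes Cripto, the co-receptor through which Nodal signals, and was 2.01 in the heterozygous and 7.31 in the homozygous anterior section. In the streak Tdgf1 ranged from 28.98 to 216 with a median of 94.6, so that even the lowest streak section, heterozygous layer 11, was above both anterior ones (-4.34, SE 0.48, adjusted p = 0.00034). Fst, encoding follistatin, which binds activins and some bone morphogenetic proteins (BMPs), was 3.46 and 1.26 against 15.5 to 125.53 in the streak (-4.36, SE 0.61, adjusted p = 0.00273). Frzb, a secreted Wnt antagonist, was 0.737 and 0.494 against 5.30 to 32.9 (-3.42, SE 0.55, adjusted p = 0.00905). The antagonists were thus not all low in the anterior epiblast: Sfrp2, another secreted Wnt antagonist, was 15.0 and 9.38 there and 0.451 to 5.30 in the streak, above every streak section but not past the threshold (1.99, SE 0.58, adjusted p = 0.236). Dkk1, an antagonist of the Wnt co-receptor, was listed at 0 in both anterior sections and was 1.23 to 10.0 in the streak (-2.30, SE 0.51, adjusted p = 0.0692). Of the 4 measured Wnt antagonists, Frzb was the only one called.

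The 3 measured genes of the apelin pathway were called lower in the anterior epiblast. This pathway, in which the peptides Apln and Apela act on the receptor Aplnr, guides the migration of mesendoderm and heart progenitors. Apln was 0.147 and listed at 0 in the anterior sections and 4.52 to 32.4 in the streak (-3.85, SE 0.51, adjusted p = 0.00207). Apela was 1.78 and 0.859 against 5.05 to 35.5 (-2.63, SE 0.49, adjusted p = 0.0207). The receptor gene Aplnr was 0.248 and 0.0346 against 1.67 to 31.6 (-3.15, SE 0.65, adjusted p = 0.0407). The Aplnr call was lost in 15 of 28 alternatives. All 3 genes lay below the whole streak, as did 1.87% of all genes measured. The 3 were put together as a list after their values were seen. In the 8 mesoderm sections Apln was 0.26 to 3.49 and Aplnr 5.73 to 20.5, so the ligand was lower there than in any streak section while the receptor lay within the streak's range.

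**Figure D3:**
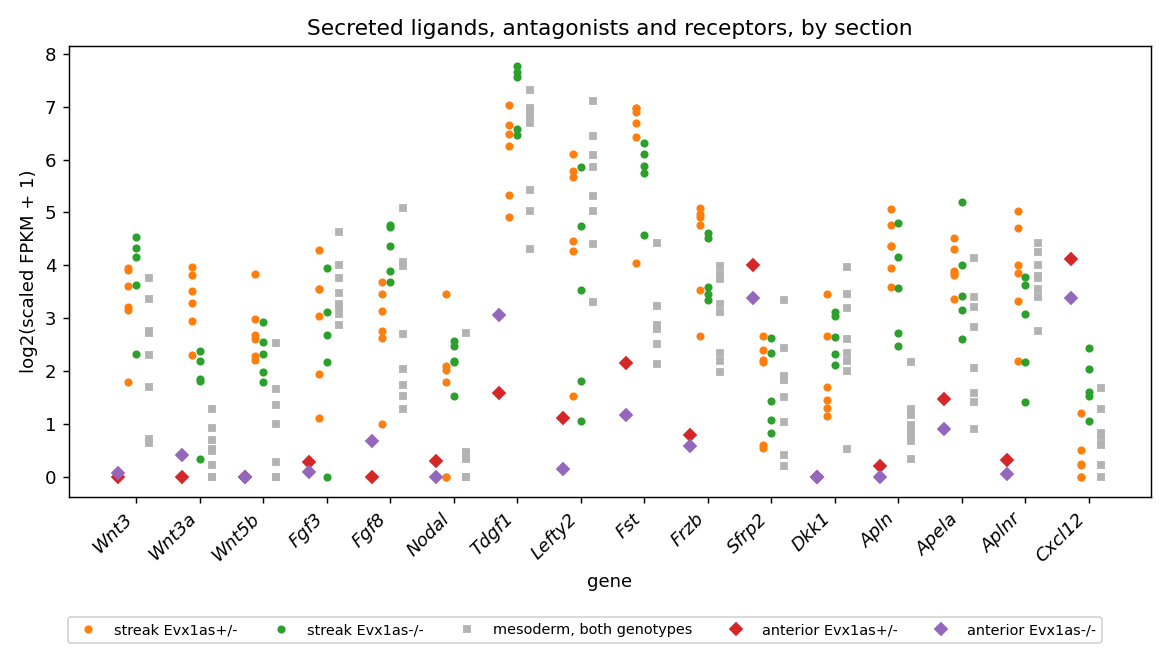
Level of 16 genes for secreted ligands, antagonists and receptors as log2(scaled FPKM + 1) (vertical axis), 1 point per section: diamonds for the anterior sections (red heterozygous, purple homozygous), circles for the streak (orange heterozygous, green homozygous) and grey squares for the 8 mesoderm sections. Both diamonds lie under all circles for Wnt3, Wnt5b, Fgf8, Tdgf1, Fst, Frzb, Dkk1, Apln, Apela and Aplnr, and above all circles for Sfrp2 and Cxcl12.

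Targets of the Wnt pathway showed the same direction but few calls. Sp5, a zinc finger factor that responds directly to Wnt, was 0.459 and 0.129 in the anterior sections and 8.01 to 32.7 in the streak, with no overlap (-3.93, SE 0.38, adjusted p = 0.000112). Of 12 measured Wnt targets Sp5 and T were called lower and none higher, and the median difference was -1.21. Below all streak sections lay 6 of them, against 1.87% of all genes measured. Axin2 (0 and 0.119 against 0.327 to 3.48) and Nkd1 (0.222 and 0 against 0.538 to 2.99), which both damp the pathway, were among those 6 without passing, at adjusted p = 0.384 and 0.293. The promoters of the called Wnt genes were searched for the binding letters of TCF/LEF factors, through which the pathway acts. The bases shown are the 250 before the start site in RefSeq on GRCm38.p6, the build of mm10, read 5′ to 3′ on the strand of the gene, with CTTTGAT or its reverse complement in capitals.
Sp5, chr2:70474673-70474922, plus strand: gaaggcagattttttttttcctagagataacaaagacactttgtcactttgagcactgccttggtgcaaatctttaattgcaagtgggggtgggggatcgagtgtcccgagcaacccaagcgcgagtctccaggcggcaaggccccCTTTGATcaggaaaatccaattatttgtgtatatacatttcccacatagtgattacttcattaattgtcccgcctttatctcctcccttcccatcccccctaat
Wnt5b, chr6:119449387-119449636, minus strand: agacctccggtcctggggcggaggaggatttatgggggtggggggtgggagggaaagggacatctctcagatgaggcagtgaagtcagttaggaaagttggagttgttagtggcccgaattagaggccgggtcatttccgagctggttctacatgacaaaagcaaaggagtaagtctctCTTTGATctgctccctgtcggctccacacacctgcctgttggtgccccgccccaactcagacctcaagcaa
The match lies 104 to 98 bases before the start in Sp5 and 71 to 65 bases before the start of 1 of 3 promoters of Wnt5b. Among the 18 called lower genes with a promoter in the table these were the only 2 with the letters, and among the 15 called higher genes Cxcl12 and Phc1 also held them. The letters occur in 3.21% of all 32851 promoters of that length, so their presence is a description of these windows and shows no binding.

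Among FGF targets the anterior sections stood apart from each other for some genes and not for others. The summed level of the list was 29.6 in the heterozygous anterior section, below the streak's 66.1 to 194, and 84.2 in the homozygous one, inside that range. Dusp6, a phosphatase that FGF signalling induces, was 1.68 in the heterozygous anterior section and 12.9 in the homozygous one. The streak values of Dusp6 were 17.8 to 49.3, above both (-2.26, SE 0.43, adjusted p = 0.0222). Dusp6 was the only call among 9 measured FGF targets, whose median difference was -0.89. Spred1, which inhibits the same pathway, was 1.94 and 1.95 against 2.20 to 8.36 (adjusted p = 0.357). Spry2, Spry4, Spred2 and Etv5, also feedback inhibitors or targets of the pathway, were lower than the streak mean in the heterozygous contrast, by -2.59, -2.24, -1.37 and -0.40, and higher in the homozygous one, by 0.71, 0.10, 0.24 and 0.63, and none passed. Etv1, Etv4 and Il17rd were lower in both contrasts, by -0.13, -1.13 and -0.53 in the heterozygous one and by -0.16, -1.03 and -0.37 in the homozygous one. With 1 anterior library per genotype, no difference between genotypes is drawn. Of 10 measured Nodal targets and pathway genes, Eomes, Mixl1 and Tdgf1 were called lower and the median was -1.61. None of the 5 measured BMP targets was called, and their median was 0.68.

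Genes of the posterior streak, of nascent mesoderm and of the loss of epithelial contacts were lower on balance, most without passing. Of 11 measured posterior genes only Wnt5b was called, and the median was -1.69. Cdx1 and Hoxb1, homeobox genes of the posterior body axis, are examples: Cdx1 was listed at 0 in both anterior sections and was 0.527 to 15.8 in the streak (adjusted p = 0.275), and Hoxb1 was listed at 0 and at 0.13 against 0.178 to 29.6 (adjusted p = 0.365). Of 10 measured genes of nascent mesoderm Apln, Aplnr and Fst were called lower and none had a positive difference (median -1.87). The Notch ligand Dll1 was listed at 0 in both anterior sections and was 0.0328 to 9.76 in the streak (adjusted p = 0.255). Fn1, encoding the matrix protein fibronectin, was 1.20 and 1.48 against 5.01 to 16.9 (-2.16, SE 0.39, adjusted p = 0.0189), and with Snai1 it made 2 calls among 9 genes of that process (1 in the FPKM as deposited). Cdh2, the cadherin that replaces the epithelial one, was 0.242 and 0.473 against 0.71 to 11.5 without passing (adjusted p = 0.398). The opposite group, 12 measured epithelial genes, had no call and a median of 0.71. Above all streak sections lay 3 of them, against 2.27% of all genes measured. Cdh1, the epithelial cadherin, was 14.3 and 17.1 against 8.88 to 23.9, within the streak (0.03, adjusted p = 0.989). The keratin genes Krt8 and Krt19 had differences of -1.22 and -0.67. Among the 3 above the streak Epcam, a cell adhesion molecule of epithelia, was 37.2 and 36.5 against 7.00 to 27.7 (0.90, SE 0.37, adjusted p = 0.46), and the polarity gene Crb3 was 16.4 and 9.70 against 0 to 9.03 (2.56, SE 0.81, adjusted p = 0.289). The third was Cldn7, a claudin of tight junctions, at 23.7 and 17.2 against 0.919 to 16.9 (adjusted p = 0.496).

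Other called lower genes with a name do not belong to the lists above. Cxx1c, a retrotransposon-derived gene, was 4.60 and 0.759 in the anterior sections and 23.6 to 141 in the streak (-4.21, SE 0.44, adjusted p = 0.000256). Its near-identical copy Cxx1b was 2.13 and 0.973 against 1.78 to 37.1 and is the only called gene whose regions overlap. How reads were split between the copies is not given in the sources used here, so both are uncertain. The genes that follow, like Cxx1b, fall outside the naming rule and are named after their values were seen. Tceal8 was 70.6 and 99.4 against 194 to 457. A further 6, Arl4d, Rai14, Cited2, Prtg, Hacd1 and Rbms1, differed by -1.69 to -2.78.

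On the anterior side, genes known from primed epiblast and early neural ectoderm were among the largest called differences. Slc7a3, a transporter of cationic amino acids, was 41.1 and 51.1 in the heterozygous and homozygous anterior sections and 0.456 to 6.57 in the streak, with a median of 2.11. Both anterior sections were above every streak section (3.87, SE 0.49, adjusted p = 0.00126). Utf1, a chromatin protein of pluripotent cells, was 43.2 and 100.1 against 0.834 to 14.0 (3.78, SE 0.48, adjusted p = 0.00126). Sox2 differed by 3.25 (SE 0.54, adjusted p = 0.0114). Pou3f1, a POU factor that promotes neural fate in the epiblast, was 9.28 and 19.6 against 0.423 to 1.82 (3.01, SE 0.33, adjusted p = 0.00034). In none of these 4 genes did the regions overlap.

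Other genes of the same lists did not differ in this way. Of 7 measured anterior markers Sox2 and Pou3f1 were called higher and 1 lower, and the median difference was 1.30. Otx2, the head organizing factor, was 26.3 and 42.6 in the anterior sections, but in the streak it reached 34.2 in homozygous layer 1, so the regions overlap (2.29, SE 0.61, adjusted p = 0.154; exact permutation p = 0.0238). Of 13 measured epiblast and pluripotency genes Slc7a3 and Utf1 were called higher and Tdgf1 lower, and the median was 0.26. Pou5f1, encoding Oct4, was 90.1 and 117 against 46.2 to 139 (0.26, SE 0.28, adjusted p = 0.856), with the sign turning to -0.18 in the FPKM as deposited. Nanog was 1.94 and 3.70 against 4.50 to 24.5, below every streak section without passing (-1.60, SE 0.37, adjusted p = 0.0829). Dnmt3b, a DNA methyltransferase of primed cells, was 180 and 155 against 8.06 to 85.8 (1.79, SE 0.61, adjusted p = 0.334). Fgf5, a marker of primed epiblast, was 1.89 and 15.5 in the anterior sections and 0.746 to 45.3 in the streak, so the anterior sections stood apart from each other. These genes were therefore not placed together: Sox2, Utf1 and Slc7a3 lay above the streak, Pou5f1 within it and Nanog below it.

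Among the remaining named calls are genes of several kinds. Slc35d3, a nucleotide sugar transporter family member, was 15.9 and 13.3 against 0 to 0.735 (3.63, SE 0.35, adjusted p = 0.000112). Syt11, a synaptotagmin of vesicle traffic, was 11.1 and 16.0 against 0.102 to 2.82 (2.76, SE 0.47, adjusted p = 0.0123). Uchl1, a deubiquitinase known from neurons, was 14.8 and 6.83 against 0 to 3.95 (2.55, SE 0.46, adjusted p = 0.0182). Ccdc70 was 14.5 in the heterozygous anterior section and 1.34 in the homozygous one, and was listed at 0 in all streak sections but homozygous layer 7, at 0.19 (2.59, SE 0.51, adjusted p = 0.0294). Its difference thus rests largely on 1 library: without the heterozygous anterior section Ccdc70 fell under the expression filter. Acsl4, which activates long-chain fatty acids, was 20.2 and 41.6 against 2.28 to 10.1 (2.28, SE 0.40, adjusted p = 0.0143).

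Cxcl12, the chemokine that attracts cells carrying the receptor Cxcr4, was 16.5 in the heterozygous anterior section and 9.42 in the homozygous one. In the streak Cxcl12 was 1.31, 0.181, 0, 0.163, 0 and 0.414 in heterozygous layers 1 to 11 and 1.07, 2.04, 3.08, 4.39 and 1.86 in the homozygous layers. The regions did not overlap (2.73, SE 0.48, adjusted p = 0.0156). Cxcr4 lay under the filter: it was 0 and 0.154 in the anterior sections, 0 to 1.90 in the streak and 0.377 to 7.73 in the 8 mesoderm sections, 7 of which were above the whole streak.

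Genes outside the naming rule, named after their values were seen, include 2 subunits of the Polycomb repressive complex PRC1. Phc1 was 37.1 and 15.7 against 2.42 to 10.2 (1.90, SE 0.35, adjusted p = 0.0207), and Cbx7 was 6.77 and 10.7 against 0.447 to 3.62 (1.86, SE 0.39, adjusted p = 0.0472). The other 10 measured PRC1 genes were not called and the median of all 12 was -0.06. Sall2, Spon1, Mapk12 and the long non-coding RNA Snhg14 were also called higher, by 1.70 to 2.20. The calls of Cbx7 and Mapk12 were each lost in 15 of the 27 alternatives in which they were measured. That of Spon1 was lost in 13 of 26. Snhg14, a transcript of the imprinted Prader-Willi and Angelman region, was 93.7 and 65.1 against 15.9 to 34.3.

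Msmo1 and Insig1 belong to sterol synthesis, and a list of 23 genes of that pathway and its control was drawn up after their values were seen. Cells make cholesterol from acetyl-CoA through the mevalonate pathway, and the factor SREBP2, encoded by Srebf2, switches the genes on when sterols are low, with Insig1 as its brake. Msmo1, the sterol methyl oxidase, was 20.6 and 24.3 in the anterior sections and 0.233 to 5.73 in the streak, with no overlap (3.13, SE 0.54, adjusted p = 0.0143). Insig1 was 34.5 and 25.9 against 1.74 to 19.3, the highest streak section being heterozygous layer 11 (2.60, SE 0.51, adjusted p = 0.029). Fdps, which makes farnesyl diphosphate, was 12.3 and 6.77 against 1.48 to 3.44 (1.64, SE 0.31, adjusted p = 0.0213). These 3 were the calls among 19 measured genes of the list.

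Most of the list lay higher in the anterior sections: 18 of the 19 had a positive difference and the median was 1.49. In 14 both anterior sections lay above all streak sections, against 2.27% of all genes measured. At an unadjusted p under 0.05 there were 15 higher and 1 lower, against 3.98% and 4.85% of all genes. The summed level of the list was 221 and 267 in the anterior sections and 56.6 to 111 in the streak. Hmgcs1, which makes the HMG-CoA of the mevalonate pathway, was 29.4 and 44.1 against 1.42 to 18.0 (2.57, SE 0.56, adjusted p = 0.0585). Srebf2 itself was 6.61 and 5.04 against 0.17 to 2.94 (1.58, SE 0.45, adjusted p = 0.21). Ebp, a sterol isomerase, was the exception at 1.98 and 1.76 against 0.932 to 10.2 (-1.02, SE 0.46, adjusted p = 0.523). In the FPKM as deposited 17 of 19 stayed positive and none was called.

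**Figure D4:**
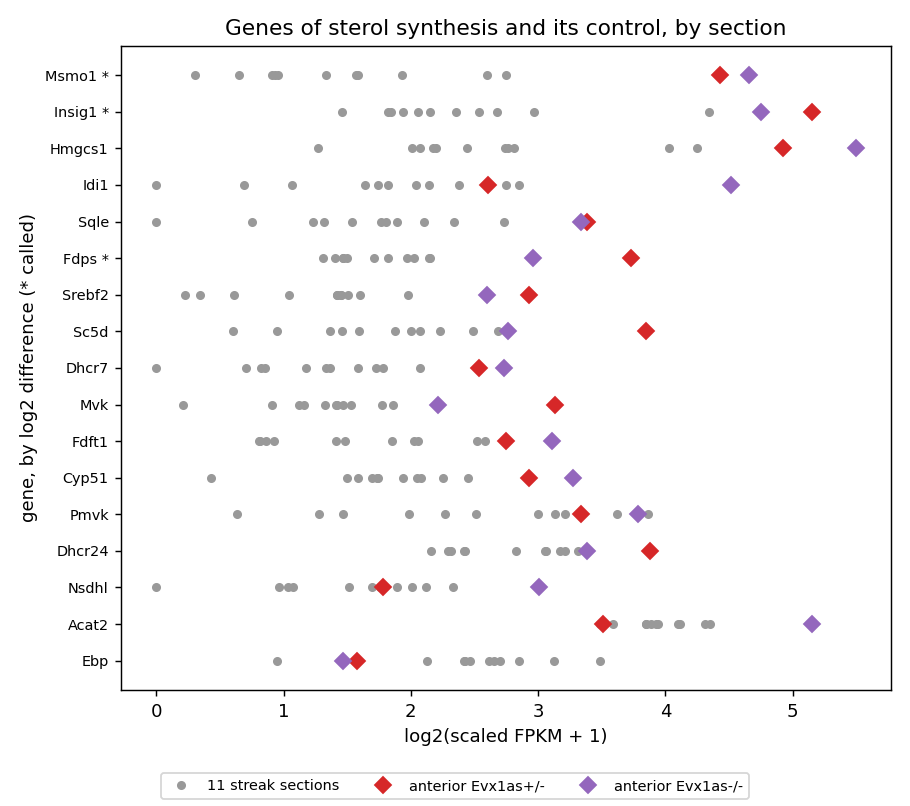
Level of 17 measured genes of sterol synthesis and its control (rows, by difference) as log2(scaled FPKM + 1) (horizontal axis): red and purple diamonds are the heterozygous and homozygous anterior sections, grey circles the 11 streak sections, and a star marks the 3 called genes. In 12 rows both diamonds lie to the right of all circles, and Ebp, at the bottom, lies on the left.

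The sequence before the start site was read for the sterol genes because SREBP2 works with the factor NF-Y, which binds CCAAT boxes. The 250 bases before the start in RefSeq (GRCm38.p6) are printed for Msmo1, Insig1 and Hmgcs1, 5′ to 3′ on the strand of the gene, with CCAAT or its reverse complement ATTGG in capitals, and in Hmgcs1 also the sterol element core TCACNCCAC.
Msmo1, chr8:64733579-64733828, minus strand: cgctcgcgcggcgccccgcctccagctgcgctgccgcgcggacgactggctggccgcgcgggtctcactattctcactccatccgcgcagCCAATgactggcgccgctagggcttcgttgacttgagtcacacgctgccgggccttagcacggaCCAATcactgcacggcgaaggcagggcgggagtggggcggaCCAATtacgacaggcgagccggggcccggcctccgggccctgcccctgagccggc
Insig1, chr5:28071162-28071411, plus strand: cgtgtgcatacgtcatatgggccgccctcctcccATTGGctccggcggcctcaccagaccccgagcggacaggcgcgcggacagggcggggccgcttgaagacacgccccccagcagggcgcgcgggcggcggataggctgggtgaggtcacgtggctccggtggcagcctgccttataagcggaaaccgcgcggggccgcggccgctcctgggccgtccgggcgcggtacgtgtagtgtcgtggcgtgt
Hmgcs1, chr13:119690101-119690350, plus strand: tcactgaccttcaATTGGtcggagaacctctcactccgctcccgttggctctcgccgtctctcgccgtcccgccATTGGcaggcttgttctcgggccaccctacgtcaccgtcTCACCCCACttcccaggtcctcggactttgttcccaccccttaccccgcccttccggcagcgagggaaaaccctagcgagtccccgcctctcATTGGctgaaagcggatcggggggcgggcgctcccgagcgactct
Of the 13 sterol genes with a promoter in the table, 12 held a CCAAT box (92.3%), against 42.01% of the 5911 measured genes with a promoter and 37.5% of all genes in the table. Per promoter, the shares were 12 of 16 for the sterol genes and 33.8% for all 32851. Ebp, the exception that was lower in the anterior sections, is among the 12, and the list was drawn up after values were seen. The box was also found in 8 of 15 genes called higher and 10 of 18 called lower. The sterol element core was found in Hmgcs1 alone. It occurs in 1.05% of all promoters. The letters describe these windows and show no binding, and a role of SREBP2 or NF-Y was not tested.

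The regional difference was next taken within each genotype, since there is 1 anterior section of each. The lone section of a genotype is assumed to vary like the streak sections, and p-values over sections that may share embryos are too small. In the heterozygous contrast 127 genes passed and in the homozygous contrast 8. Of the 56 called genes 29 passed in the first and 5 in the second: T, Sp5, Cxx1c, Slc35d3 and Pou3f1. Over all 9663 genes 5266 had the same sign in both genotypes, and all called genes do so by the rule. A region by genotype interaction was also fitted, which compares 1 anterior library with 1 and from which no difference between genotypes is drawn: 22 genes passed (0.228%) and 525 at an unadjusted p under 0.05. Without the heterozygous streak layer 11 the interaction count was 35, the heterozygous count 278 and the homozygous count 15, and without the heterozygous layer 1 the homozygous count was 16. Of the 22, 17 would not have passed the expression filter without the anterior library in which they were highest, 14 of them the heterozygous one. None of the 56 called genes was among the 22. The only one of the 22 with a standard gene name outside immunoglobulin segments is Pcp4, a calmodulin-binding protein. Pcp4 was 15.2 in the heterozygous anterior section, listed at 0 in the homozygous one, and 0 to 1.17 in the streak, so its value rests on 1 library.

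**Figure D5:**
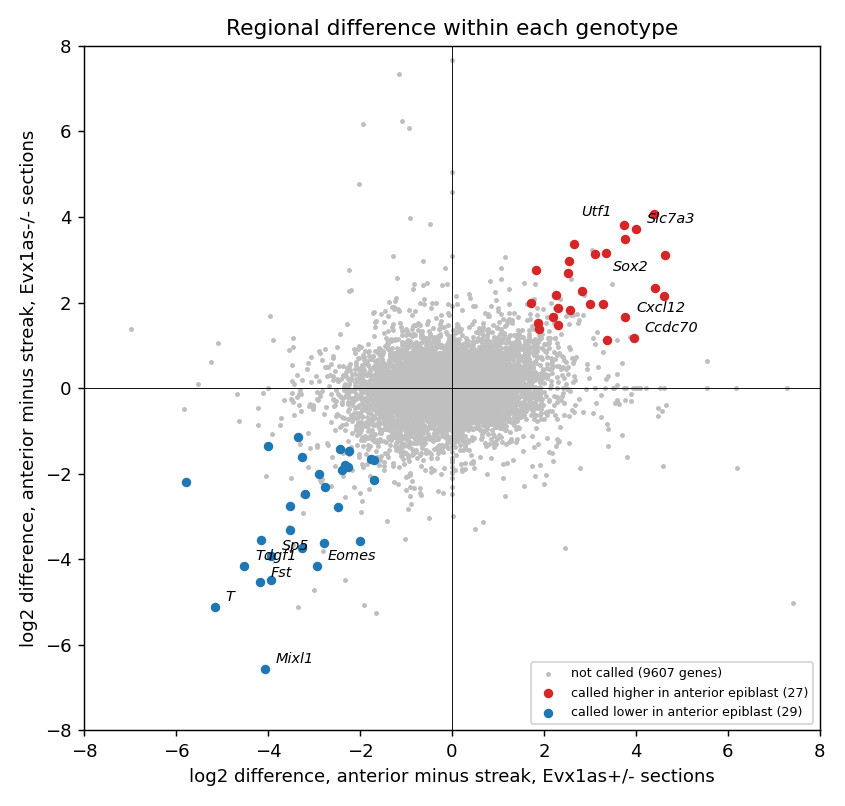
Log2 difference of anterior minus streak in the heterozygous sections (horizontal axis) and in the homozygous sections (vertical axis), 1 point per gene: 27 genes called higher in red, 29 called lower in blue and the rest in grey; 1 gene lies beyond the axes. Called genes fall in the upper right and lower left, as the rule requires, with T at -5.16 and -5.11 and Ccdc70 at 3.95 and 1.18.

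The layer of the streak mattered for some genes. Noto and Foxj1, genes of the node and its cilia, were 209 and 54.5 in heterozygous layer 1 and 47.3 and 9.16 in homozygous layer 1, and at most 0.586 and 3.74 in the other streak sections. Noto was 0.312 and 0 in the anterior sections and Foxj1 was at 0 in both. Lhx1, a factor of the organizer and anterior mesendoderm, was 5.95 and 0.432 in the anterior sections and 1.82 to 67.5 in the streak, with 20.9 and 67.5 in the layer 1 sections. None of the 14 measured organizer and endoderm genes was called. With the layer 1 sections left out, 76 genes were called, among them 52 of the 56, and with layer 11 left out as well 107, among them 51. Without layer 1 and the homozygous layer 11, the section high in visceral endoderm genes, 58 were called, among them 42.

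The 8 mesoderm sections, 3 heterozygous and 5 homozygous, were set beside the streak to see which differences are shared. Among 8604 genes measured, 79 were called in the anterior sections against mesoderm (0.918%), of which 39 rose (0.453%) and 40 fell (0.465%), again with p-values that are too small where sections share embryos. This comparison uses the same 2 anterior sections, so its values are given side by side only. Of the 27 genes called higher against the streak 26 were measured and 13 were called higher here, and of the 29 called lower 27 were measured and 11 were called lower. Both anterior sections lay above all 8 mesoderm sections for 20 of the 26 (3.84% of all genes) and below them for 19 of the 27 (3.36% of all genes). Sox2, Utf1, Slc7a3, Slc35d3, Msmo1, Insig1 and Cxcl12 are among the 13, and Tdgf1, Eomes, Snai1, Aplnr and Fn1 among the 11. T, called lower against the streak, was 5.76 to 25.1 in mesoderm and was not called against it. Tceal8 was 69.6 to 133 in mesoderm, a range that includes both anterior values. Pou3f1 reached 6.14 in 1 mesoderm section, homozygous layer 3, and was not called either. Without the heterozygous anterior section 21 genes were called in place of 79, and without the homozygous one 37. Without the homozygous mesoderm sections of layers 7, 9 or 11 the count was 49, 50 or 52.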

How the data were processed

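Small sections of mouse embryos were sequenced, and the authors deposited 1 table per section with the FPKM of each gene and its confidence interval. Per the submitters' processing notes, CASAVA, TopHat2 2.0.11 and mm10 were used; the tool that made the FPKM, and whether it used the strand, are not given in the sources used here. Depth is not given as counts: fragment numbers recovered from the intervals were whole, within 0.05, for 46.6% to 55.5% of the values looked at, so no count test was run and precision is given by the spread of sections. The 46854 rows per table hold 46785 identifiers, whose repeats were added up. FPKM of the 13 sections were scaled by the median ratio over 7533 genes above 0 in all of them, genes with a mean under 1 were left out, and log2(scaled FPKM + 1) was fitted with limma 3.58.1 in R 4.3.3 (region and genotype, mean-dependent prior, two-sided, Benjamini-Hochberg, threshold 0.05). A fold on this scale understates the change of low genes. Interaction and within-genotype contrasts came from the 4 group means, and mesoderm was scaled and fitted separately. The code was tested on simulated data.

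Named genes are the 12 largest called differences each way with a mean of at least 5 in the higher region and no overlap (predicted genes left out), up to 5 called members per list, Evx1as and Evx1; members of the region and cell type lists may be named with values only. The members and lists were chosen with earlier results of these data known. Alternatives varied the scaling, pseudocount, filter, prior, terms and sections. The 3 sections with conflicting labels entered no comparison. A few members of these lists are not reported here singly, and the figures leave them out.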

Additional observations from a re-analysis of the deposited data

Results flagged for a closer look

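Single streak sections stood apart from the rest of their genotype (by Dixon's criterion) in 24 of 180 combinations of a named gene and a genotype. The nominal rate of the criterion, about 1 in 20, holds for independent normal values. These genes were chosen, and some are at 0 in most sections, so no excess over chance is drawn. Layer 1 accounted for 7 of the flagged combinations in each genotype.

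In heterozygous layer 1, Noto (209) and Lhx1 (20.9) were far above the other heterozygous streak sections, in scaled FPKM, and Cdx1 (0.527), Hoxb1 (0.738), Wnt3 (2.44), Fst (15.5) and Dnmt3b (8.06) were far below. In homozygous layer 1, Noto (47.3), Foxj1 (9.16) and Insig1 (5.40) were high, and Mesp1 (0.320), Dll1 (0.0328), Wnt3a (0.261) and Cxx1b (1.78) were low.

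In heterozygous layer 11, Epcam (7.00), Cyp51 (0.345) and Cited2 (6.31) were apart from the other heterozygous sections. In homozygous layer 11, Ebp (10.2) was high, and Eomes (18.2) and Sp5 (13.5) were low. In heterozygous layer 9, Sp5 was low at 8.01 and Pcp4 was at 0.741. Fdps was at 3.41 in homozygous layer 9 and Ccdc70 at 0.190 in homozygous layer 7.

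In the region by genotype interaction 22 genes passed, with 1 anterior library per genotype, and 17 of them reached the expression filter only through the anterior library in which they were highest. No difference between genotypes is drawn from this count. For Pcp4, which was at 15.2 in the heterozygous anterior section alone, the homozygous minus heterozygous value was -4.18 on the log2 scale.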

How the results depend on the processing

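The count of 56 called genes became 268 with no filter on low values, 37 with a mean of at least 5, and 107 with streak layers 3 to 9 only, an alternative chosen after seeing the data. Leaving out 1 section gave 10 to 126.0, the extremes being the 2 anterior sections; leaving out 1 streak section kept 44 to 56 of the 56. The other alternatives gave 40 to 76, apart from the paired fit given below. A pseudocount of 0.1 gave 8 higher and 40 lower, and one of 5 gave 41 higher and 14 lower. The interaction count of 22 became 6 in the FPKM as deposited, 37 with a pseudocount of 0.1 and 4 with a mean of at least 5, and 19 to 35 leaving out 1 streak section. The heterozygous count of 127 became 49, 250 and 70 under the same settings (94 to 278 leaving out 1), and the homozygous count of 8 became 13 with a pseudocount of 0.1 and 5 with a mean of at least 5 (8 to 16 leaving out 1). The within-genotype alternatives were chosen after seeing the data. The mesoderm count of 79 was 78 as deposited and 21 to 111 leaving out 1 section.

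The called genes kept their sign under every alternative in which they were measured. Among named genes that were not called, Pou5f1 turned to -0.18 as deposited, Fgf5 to 0.19 without layer 1, and leaving out 1 section gave -1.16 to 0.55 for Fgf5 and -3.33 to 0.50 for Lhx1, the extremes again being the anterior sections; the cause was not tested. The labels give no replicate numbers that the regions share. A paired fit of the anterior sections with the streak layer 5 sections of their genotype, which lie within layers 4 to 6, called 98 genes, 41 of the 56 among them (an alternative chosen after seeing the data). In the paired fit each genotype has 1 section per region, so its calls rest largely on the prior of limma and not on measured spread. With 1 anterior section per genotype, the spread between anterior sections of 1 genotype is not measured.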

Other observations

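The 3 sections whose title and cell type label name different regions are given as values in scaled FPKM. The homozygous section titled as streak layer 3 and labelled mesoderm had T at 28.9, Mixl1 at 164, Tdgf1 at 167, Sox2 at 1.61, Utf1 at 11.9 and Fn1 at 4.34. The heterozygous section titled as mesoderm layer 3 and labelled streak had T at 38.9, Mixl1 at 3.12, Tdgf1 at 37.0, Sox2 at 0, Utf1 at 2.30 and Fn1 at 50.2. The heterozygous section titled as mesoderm layer 7 and labelled streak had T at 12.7, Mixl1 at 2.72, Tdgf1 at 23.7, Sox2 at 4.43, Utf1 at 9.78 and Fn1 at 29.97.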
